A study of Mus musculus with 192 samples.

Results

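The miR-1946a inhibitor experiment consists of 6 RNA libraries of E14 mouse embryonic stem cells (mESCs), 3 from cells that received an inhibitor of miR-1946a and 3 from cells that received a scrambled inhibitor, out of 192 libraries in the series. The members were chosen by their labels: inhibitor transfection, miR-1946a or scrambled, in the batches b1b, b2 and b3, each of which holds 1 library of both groups. All cells were wild-type E14 cells grown in 2i medium with LIF and transfected in 2i medium with 10% FBS for 48 h, with reagent at 2 times a base concentration of 100 nM, and fixed in 4% PFA before RNA extraction. The inhibitor is an LNA-modified oligonucleotide that binds the mature miR, and the scrambled control is an oligonucleotide of the same kind that is not directed against a miR. The other 42 inhibitor libraries of the same batches served for comparison: inhibitors of miR-1946b and of 12 other miRs and untreated cells ("none"), 3 libraries each.

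A microRNA (miR) guides the Argonaute complex to messenger RNAs that pair with its seed, the bases near its 5′ end, and thereby lowers their level or their translation. An inhibitor that occupies the miR relieves its direct targets of this repression, which raises the mRNA of a target that is degraded through the miR. In the study, Rab8a was followed up as a putative target of miR-1946a, miR-1946b and miR-194-1-3p. RAB8A is a small GTPase that directs vesicles to the plasma membrane and the primary cilium. The sequence of mature miR-1946b, the other miR of that name assigned to Rab8a, and its match in Rab8a are shown for context. The sequence of miR-1946a was not used here, so the match is one of miR-1946b. Whether the inhibited miR pairs with this stretch was not tested. Capitals mark the seed of the miR (bases 2 to 8) and the 7 bases complementary to it in the 3′ UTR of Rab8a. The whole mature miR (RefSeq) lies on the minus strand of chromosome 9 (chr9:21613452-21613477 in GRCm38.p6). The whole stretch printed for Rab8a lies on the plus strand (chr8:72180222-72180244 in GRCm38). Its capitals begin at base 93 after the stop codon.
miR-1946b: gCCGGGCAgugguggcacaugcuuuu
Rab8a 3′ UTR: gacacggcTGCCCGGactcgatt
This word of 7 bases (TGCCCGG) is present in 3.66% of the 21173 3′ UTRs of mouse genes that were searched on the transcript strand.

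The libraries held 15562624, 16251449 and 12798593 counts with the miR-1946a inhibitor and 23451220, 23843575 and 9699077 counts with the scrambled inhibitor, in the order b1b, b2, b3, and no library stood apart (Pearson's r of log2 CPM between any pair of the 6, across genes, 0.97 to 0.99). Mitochondrial transcripts took 1.41 to 1.58% of the counts with the miR-1946a inhibitor and 1.40 to 1.62% with the scrambled inhibitor. Pou5f1, which encodes the pluripotency factor OCT4 and defines mESCs, was at 1084, 1085 and 1164 CPM (counts-per-million of the TMM-scaled library size) with the miR-1946a inhibitor, against 1038, 1135 and 1002 CPM with the scrambled inhibitor. Transcript levels below are given as CPM in this order of batches. Genes entered the test when their count averaged more than 20, and the lowest of them, Il1r1, had a mean count of 20.2 (log2 fold change 1.75, adjusted p = 0.15).

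By its deposited counts, miR-1946a is a rare miR in these cells. In 4 small RNA libraries of untreated mESCs before the addition of retinoic acid (RA), it had 5.84 to 11.7 CPM of miR reads (median 8.91, 23 to 116 reads), and ranked between 490 and 541 from the top among the 943 to 1262 miRs with a read. The median was 10.95 CPM after 6 h of RA, 12.2 after 12 h, 16.6 after 24 h, 14.2 after 36 h, 8.20 after 48 h, 3.27 after 72 h and 2.91 after 96 h (4 libraries each). The ranges of neighbouring time points overlapped throughout. In 1 library at 72 h no read was counted, which allows up to 2.87 CPM. Intervals and limits of this kind cover counting error only. Many counts of miR-1946a and miR-1946b were fractional, such as 58.5 and 52.5 reads in the same library at 0 h. Whether reads were shared between these miRs was not tested, so their levels may not be fully separate. The transfected cells had received no RA, so the levels at 0 h are the closest to theirs, and small RNA was not analysed here after transfection.

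**Figure D1:**
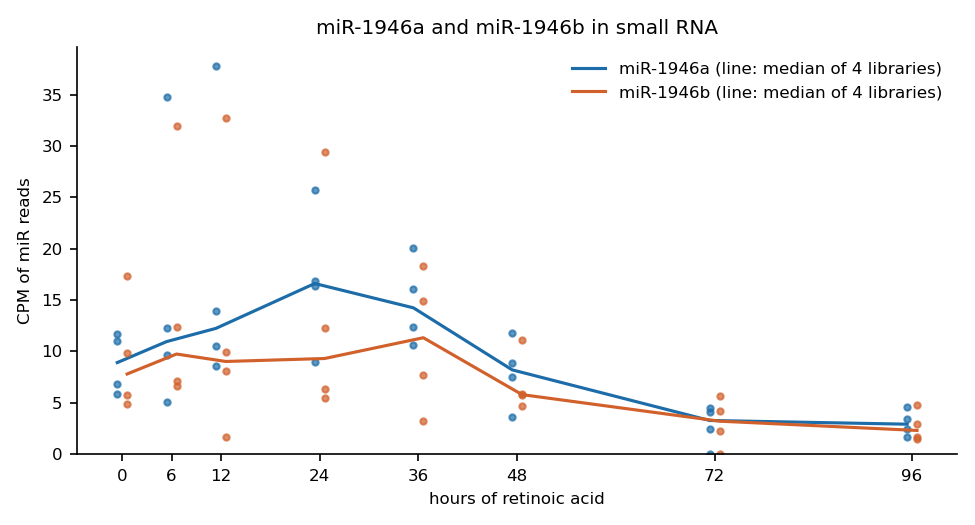
Level of miR-1946a and miR-1946b in small RNA (y axis, CPM of miR reads) against hours of RA (x axis), with 1 point per library and a line through the medians of 4 libraries. At 0 h the miR-1946a libraries sit between 5.84 and 11.7 CPM, and at 96 h none is above 4.57 CPM.

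To find which mRNAs differed with the miR-1946a inhibitor, 13068 genes were compared by a quasi-likelihood test in edgeR, with the batch as block, at an adjusted p (Benjamini-Hochberg) under 0.05. Levels of 131 genes changed (1.00% of the genes tested), of which 119 rose (0.911%) and 12 fell (0.0918%). An unadjusted p under 0.05 was found for 9.83% of all genes, with 6.34% higher and 3.50% lower. All 131 moved in the same direction in the 3 batches. A fit with the batch as block favours such genes, so this count is a description, given without the share over all genes. For 122 of the 131 the 3 libraries of one group did not overlap with those of the other, compared with 13.2% of all genes tested. Of the genes that rose, 71 rose more than 2-fold, and of those that fell, 4 fell more than 2-fold. Protein-coding genes made up 127 of the 131. The distribution was centred on 0, with a median log2 fold change of 0.01 over all genes tested. Leaving out 1 library gave 115 to 290 called genes. In the blocked fit its batch partner then carries no information on the inhibitor, and the count exceeded 1.5 times the full one without the miR-1946a library of b1b (290) or b3 (233) and without the scrambled library of b1b (273) or b3 (238).

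**Figure D2:**
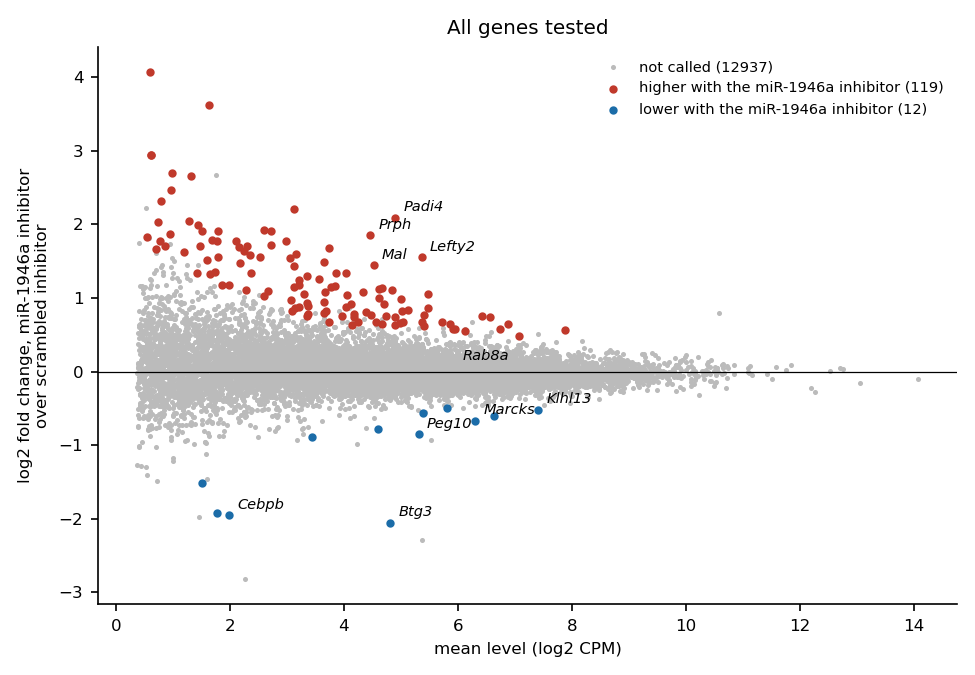
Log2 fold change of the miR-1946a inhibitor over the scrambled inhibitor (y axis) against the mean level (x axis, log2 CPM), with 1 point per gene tested. Red points are the 119 genes that rose, blue points the 12 that fell, grey points were not called. Padi4 (2.09) and Prph (1.85) lie at the upper edge, Btg3 (-2.05) at the lower edge, and Rab8a (0.07) within the cloud around 0.

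The gene with the lowest p was Padi4, a peptidylarginine deiminase that converts arginine to citrulline in histones and other proteins. It was at 51.7, 55.4 and 37.3 CPM with the miR-1946a inhibitor, against 11.1, 10.4 and 12.6 CPM with the scrambled inhibitor (log2 fold change 2.09, standard error 0.16, adjusted p = 2.8e-05). The lowest miR-1946a library, that of b3, was still far above every scrambled library. Padi2, of the same enzyme family, rose by a smaller factor (log2 fold change 0.74, standard error 0.12), with 124, 119 and 108 CPM against 77.1, 57.7 and 77.5 CPM. Padi2 does not fall under the rule for named genes and was picked after its values were seen.

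The genes of the naming rule that rose are described below in an order chosen after their values were seen. Prph encodes peripherin, an intermediate filament protein of peripheral neurons, and was at 41.1, 36.1 and 26.0 CPM with the miR-1946a inhibitor against 12.2, 7.83 and 8.83 CPM with the scrambled inhibitor (log2 fold change 1.85, standard error 0.16, adjusted p = 3.2e-05). Kif1a, a kinesin motor that carries synaptic vesicle precursors along axons, had 11.6, 13.3 and 6.08 CPM against 2.59, 2.41 and 3.43 CPM (log2 fold change 1.91). Cacna2d2, an auxiliary subunit of voltage-gated calcium channels, had 21.3, 25.4 and 13.9 CPM against 4.88, 7.74 and 6.54 CPM (log2 fold change 1.68, adjusted p = 4.1e-04). In all of these the miR-1946a library of b3 was the lowest of its group and still above every scrambled library. Insyn1, a protein of inhibitory synapses, rose as well (1.71, 9.35, 6.81 and 6.00 CPM against 2.97, 1.16 and 3.22 CPM). The list of neuroectoderm genes fixed for this report held no gene that passed (0 of 6 tested by edgeR, 1 with an unadjusted p under 0.05, median log2 fold change 0.04, and -0.01 after adjustment for GC content).

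Among cell surface genes, Msln (mesothelin) was at 14.9, 11.7 and 9.55 CPM with the miR-1946a inhibitor and at 4.33, 3.01 and 3.32 CPM with the scrambled inhibitor (log2 fold change 1.78, adjusted p = 3.9e-04). Fgfr3, a receptor of fibroblast growth factors, had 7.72, 8.28 and 4.18 CPM against 2.25, 1.81 and 2.28 CPM (log2 fold change 1.69, standard error 0.28, adjusted p = 0.0057). Lgr6, a receptor of R-spondins, had 5.09, 6.69 and 2.76 CPM against 0.976, 1.72 and 1.66 CPM (log2 fold change 1.79, adjusted p = 0.013). For these 3 receptors and surface proteins the groups were separate in every batch. Without the miR-1946a library of b2, Lgr6 (adjusted p = 0.054) and Rnf144b (adjusted p = 0.093) no longer passed.

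The remaining genes with large changes encode proteins of different kinds. Tnfaip2, a gene induced by tumour necrosis factor, rose with a log2 fold change of 1.93 (9.98, 11.1 and 7.26 CPM against 3.18, 2.58 and 1.66 CPM). Carns1, the carnosine synthase, rose by 1.77 on the log2 scale, Rnf144b, an E3 ubiquitin ligase, by 1.77, Susd5 by 1.72 and the coronin gene Coro6 by 1.64. Gm14296 had the largest change by the rule (2.21, with 16.2, 10.2 and 16.9 CPM against 4.24, 2.24 and 2.70 CPM), but it belongs to a family of predicted genes whose reads can be split between copies. Zscan4-ps2 (1.91) is likewise a member of a multi-copy family and is described with the 2-cell genes.

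Lefty2 and Lefty1, secreted antagonists of Nodal signalling, do not fall under the rule for named genes and were picked after their values were seen. Lefty2 was at 65.8, 47.9 and 69.1 CPM against 23.3, 12.2 and 29.7 CPM (log2 fold change 1.56, adjusted p = 4.8e-05), with no overlap. On the scale of the 48 libraries, Lefty2 averaged 61.0 CPM with the miR-1946a inhibitor, 21.9 CPM with the scrambled inhibitor and 37.0 CPM in untreated cells. Lefty1 was at 19.8, 13.1 and 18.3 CPM against 6.62, 5.76 and 13.4 CPM (log2 fold change 1.08, adjusted p = 0.015), and here the scrambled library of b3 lay above the lowest miR-1946a library. On the same scale, Lefty1 averaged 17.1 CPM with the miR-1946a inhibitor, 8.64 CPM with the scrambled inhibitor and 15.4 CPM in untreated cells, and 11 of the 45 other libraries lay above the lowest miR-1946a library. Against untreated cells the log2 fold change was 1.05 for Lefty2 (adjusted p = 0.71) and 0.45 for Lefty1 (adjusted p = 0.93).

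The 12 genes that fell were led by Btg3, a member of the BTG/TOB family of antiproliferative proteins that bind the CCR4-NOT deadenylase. It was at 10.3, 7.85 and 15.4 CPM with the miR-1946a inhibitor, against 43.3, 44.9 and 46.3 CPM with the scrambled inhibitor (log2 fold change -2.05, standard error 0.17, adjusted p = 2.8e-05). Btg3 was also the single gene that differed between scrambled inhibitor and untreated cells (log2 fold change 1.26, higher with the scrambled inhibitor, 18.9 CPM in the mean of untreated cells). Against untreated cells the log2 fold change of Btg3 with the miR-1946a inhibitor was -0.80 (adjusted p = 0.64). Cebpb, which encodes the transcription factor C/EBPβ, was at 1.76, 0.675 and 2.37 CPM against 3.73, 7.48 and 7.16 CPM (log2 fold change -1.95, adjusted p = 0.015). Without the scrambled library of b2, Cebpb had an adjusted p of 0.054. Marcks, a substrate of protein kinase C at the plasma membrane, was at 61.5, 55.0 and 67.3 CPM against 101, 88.7 and 101 CPM (log2 fold change -0.67, adjusted p = 0.0051).

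Other genes fell by smaller factors. Peg10, an imprinted gene derived from a retrotransposon, had 37.7, 18.2 and 28.5 CPM against 69.4, 32.5 and 51.0 CPM (log2 fold change -0.85, adjusted p = 0.0023). Its groups overlapped, while within each batch the miR-1946a library was lower. Serpine2, an inhibitor of extracellular serine proteases, had a log2 fold change of -0.90, the protocadherin gene Pcdhgc4 -0.78, Mme (neprilysin) -0.60, Lpl (lipoprotein lipase) -0.56, the ubiquitin ligase adaptor gene Klhl13 -0.52 and Camk2n1, an inhibitor of CaMKII, -0.49. Several of these passed narrowly. Klhl13 (adjusted p 0.057 to 0.081), Serpine2 (0.075 to 0.099) and Camk2n1 (0.10 to 0.14) did not pass without a library of b2 or of b3 in either group, and Lpl did not pass without the miR-1946a (0.085) or the scrambled (0.070) library of b2. Gm10131 (-1.92) was at 1.32, 1.53 and 1.11 CPM against 3.18, 5.98 and 6.75 CPM.

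**Figure D3:**
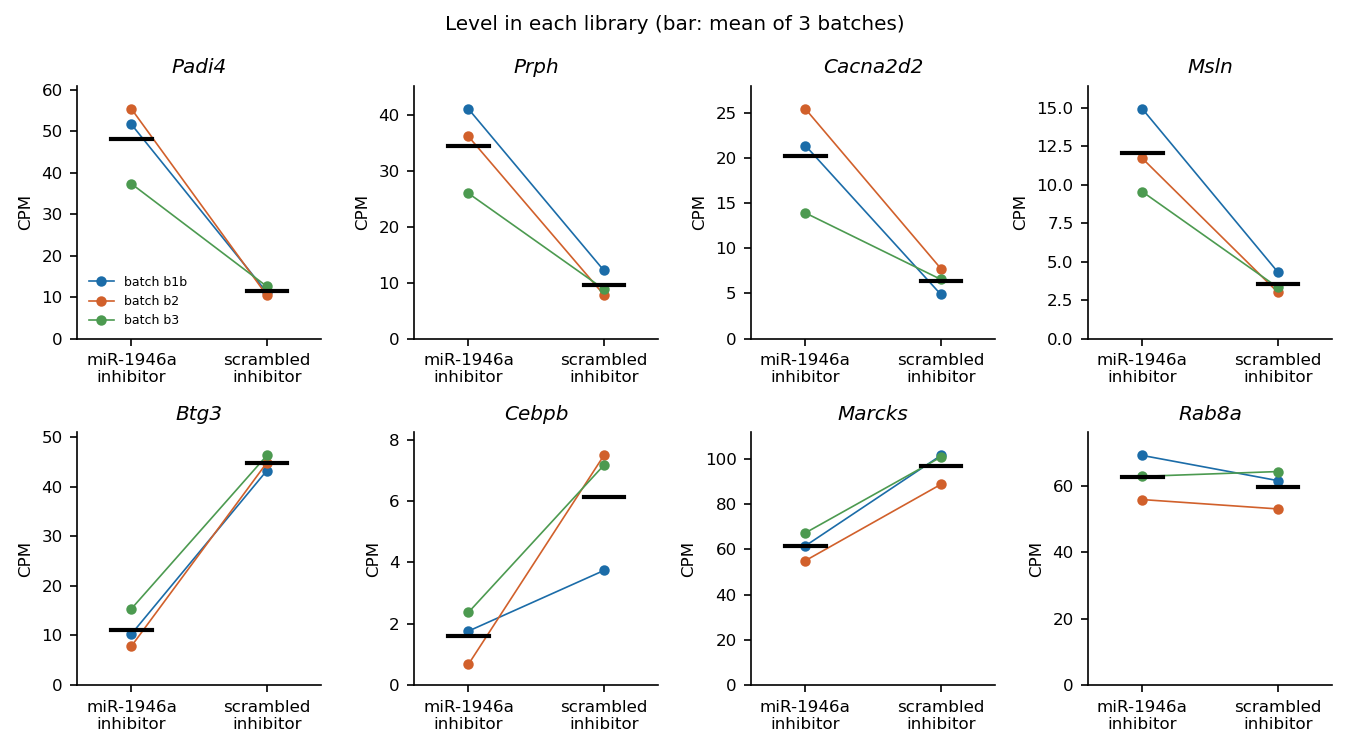
CPM (y axis, from 0) of 8 genes in each library, with the miR-1946a inhibitor on the left and the scrambled inhibitor on the right of each panel. Lines join libraries of a batch and black bars are the means of 3 batches. Padi4, Prph, Cacna2d2 and Msln are higher in all 3 miR-1946a libraries, Btg3, Cebpb and Marcks lower, and Rab8a overlaps.

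The predicted targets were also examined with a one-sided test for a higher mRNA level with the inhibitor, a kind of test the study names for its predicted targets. Of all genes tested, 9.56% had a one-sided unadjusted p under 0.05. None of the 3 predicted targets of miR-1946a did. Rab8a was at 69.1, 55.8 and 62.8 CPM with the miR-1946a inhibitor, against 61.5, 53.0 and 64.3 CPM with the scrambled inhibitor. The log2 fold change was 0.07 with a 95% interval of -0.16 to 0.31 (two-sided adjusted p = 0.88), so that the differences between batches were larger than those between the groups. Cirbp, which encodes a cold-inducible RNA-binding protein, was at 28.9, 30.3 and 29.7 CPM against 30.1, 25.8 and 20.7 CPM (log2 fold change 0.22, 95% interval -0.08 to 0.53, adjusted p = 0.66), and the groups overlapped. Poglut1, a glucosyltransferase that modifies Notch receptors, was at 56.8, 71.9 and 59.8 CPM against 65.9, 62.1 and 62.7 CPM (log2 fold change -0.02, 95% interval -0.27 to 0.23, adjusted p = 0.97).

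In a list of 26 genes of RAB8 function and trafficking to the primary cilium, none of the 24 genes tested passed in either direction by edgeR (1 had an unadjusted p under 0.05), and the median log2 fold change was 0.03, and below 0 after adjustment for GC content. Ehd3, an endocytic recycling protein, had the lowest p of them (log2 fold change 0.94, adjusted p = 0.34), with 2.39, 2.02 and 1.97 CPM against 0.976, 0.903 and 1.66 CPM. Rab11a had a log2 fold change of -0.27 and Rab8b, the paralog of Rab8a, of -0.19. No count of matches to miR-1946a itself was made, since its sequence was not used here. Genes with the 7-base word of miR-1946b in their 3′ UTR numbered 585 of the 12361 tested genes with a UTR. Of these, 7 rose by edgeR (1.20%) and 0 fell, with a median log2 fold change of 0.03. With a match of 6 bases 22 of 1634 genes rose (1.35%) and 2 fell, and with a match of 8 bases 1 of 124 rose (0.81%) and 0 fell. The median transcript GC was 52.5% for genes with the 7-base word, against 50.2% for all tested genes with a UTR. Over all genes with a UTR, 115 rose (0.93%) and 12 fell, with a median of 0.01. These counts describe matches to miR-1946b, and how they relate to the seed of miR-1946a was not tested.

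Of 25 lists of cell types and pathways, 20 held no gene that passed, and the medians of the 25 lists lay between -0.23 and 1.40. The list medians were compared with the median of 0.01 over all genes, and no test was made on a list. None of 16 naive pluripotency genes passed by edgeR (1 unadjusted p under 0.05, median -0.09) and none of 8 core pluripotency genes did (2 with an unadjusted p under 0.05, median 0.07, and -0.03 after adjustment for GC content). Lin28a, an RNA-binding protein of pluripotent cells that blocks let-7 maturation, was lowest in p among the core genes, with 53.0, 69.3 and 84.9 CPM against 71.7, 94.3 and 96.9 CPM (log2 fold change -0.36, adjusted p = 0.19). Primitive endoderm genes (0 of 9 passed, 2 with an unadjusted p under 0.05), mesoderm genes (0 of 3, none with an unadjusted p under 0.05) and primed pluripotency genes (0 of 9, none with an unadjusted p under 0.05) held no call by edgeR.

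The highest list median belonged to genes of 2-cell-like cells, a rare state of mESC cultures that expresses genes of the 2-cell embryo such as the Zscan4 cluster. Of 6 tested genes 3 rose and none fell, with a median log2 fold change of 1.40, compared with 0.911% rising over all genes. Zscan4f was at 13.2, 8.41 and 3.87 CPM with the miR-1946a inhibitor, against 2.38, 3.61 and 2.39 CPM with the scrambled inhibitor (log2 fold change 1.56, adjusted p = 0.016). Usp17la was at 4.83, 4.85 and 1.50 CPM against 0.848, 1.16 and 0.727 CPM (log2 fold change 2.04, adjusted p = 0.0075). In both genes the b3 library was the lowest of the miR-1946a group, and the groups did not overlap. In RNA of whole cultures, a change in the number of such cells and a change of the RNA per cell cannot be told apart. Zscan4 and Usp17l genes are near-identical copies and their reads may be distributed between them by the estimation of expected counts, so that single members are uncertain. Such copies and predicted genes made up 16 of the 119 genes that rose.

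**Figure D4:**
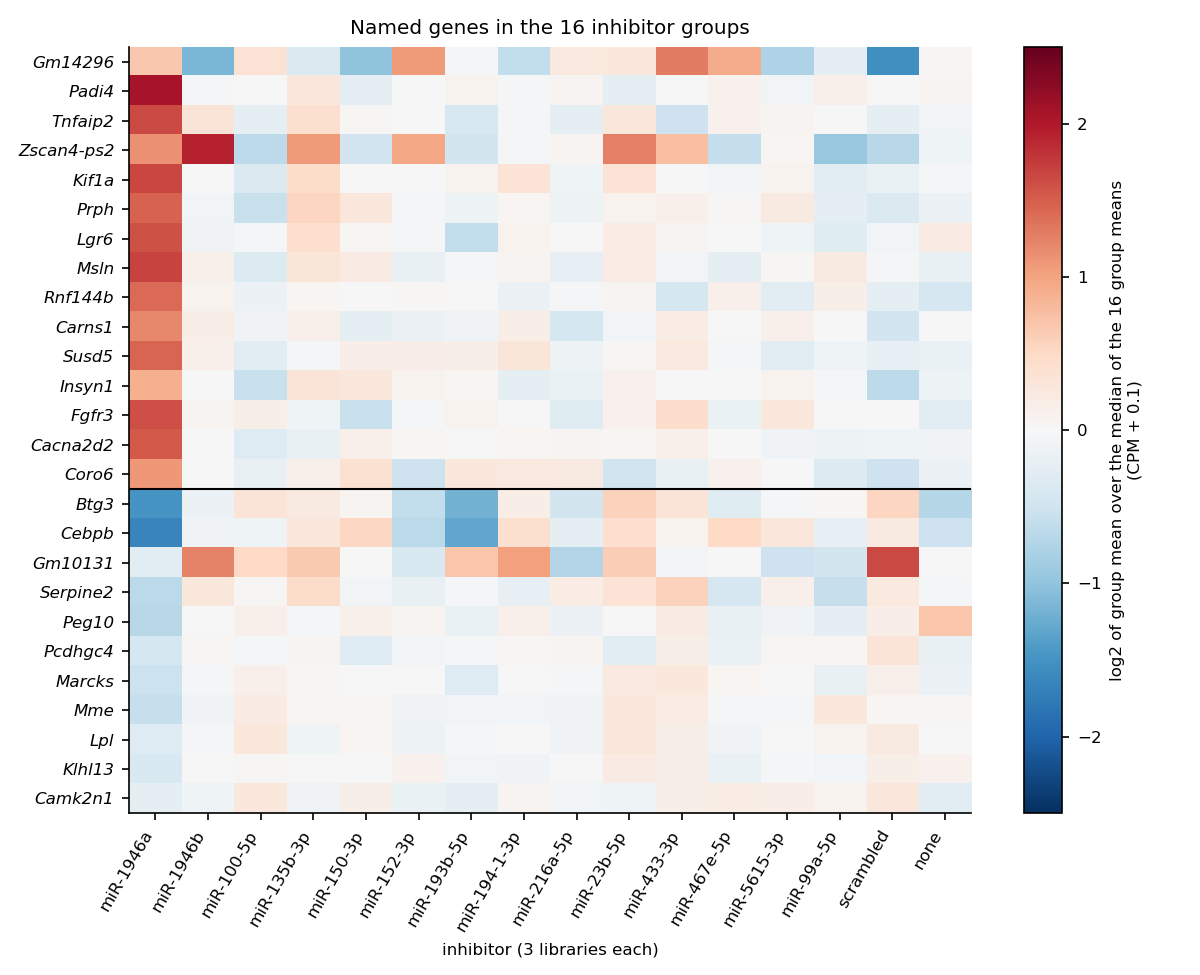
Named genes (rows) in the 16 inhibitor groups (columns, 3 libraries each), as the log2 of the group mean over the median of the 16 group means, after adding 0.1 CPM. Genes that rose are above the line and genes that fell below it. The miR-1946a column is the reddest for Padi4 to Coro6 except for Gm14296, for which miR-433-3p, miR-152-3p and miR-467e-5p are higher, and Zscan4-ps2, for which miR-1946b and miR-23b-5p are higher.

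The p53 list, with genes of cell cycle arrest and apoptosis, had the lowest median (-0.23, 17 genes tested). Of them 1 gene passed, and it was higher, compared with 0.911% rising over all genes. Gdf15, a stress-induced cytokine, was at 55.9, 51.5 and 46.4 CPM against 28.2, 36.5 and 36.2 CPM (log2 fold change 0.62, adjusted p = 0.044). The next 3 in p had lower levels in each batch and did not pass. Trp53inp1 was at 185, 251 and 203 CPM with the miR-1946a inhibitor and at 320, 289 and 247 CPM with the scrambled inhibitor (log2 fold change -0.43, adjusted p = 0.14), with an overlap between batches. Plk2 had a log2 fold change of -0.41 (adjusted p = 0.14) and Zmat3 of -0.35 (adjusted p = 0.19). Of the list, 7 genes had a negative change with an unadjusted p under 0.05, compared with 3.50% of all genes, and 2 a positive one, compared with 6.34%. Cdkn1a, the cell cycle inhibitor p21, had a log2 fold change of 0.08.

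For the lists that follow, the shares over all genes were 0.911% rising and 0.0918% falling. In the list of the integrated stress and unfolded protein responses, 1 gene rose and 1 fell among 17. Chac1, which degrades glutathione and is induced by ATF4, was at 40.6, 36.6 and 23.8 CPM with the miR-1946a inhibitor against 22.1, 18.7 and 12.9 CPM with the scrambled inhibitor (log2 fold change 0.91, adjusted p = 0.0027), and the gene that fell was Cebpb. Of 15 imprinted genes 2 fell, Peg10 and Igf2 (insulin-like growth factor 2, log2 fold change -1.52, 2.64, 0.245 and 0.789 CPM against 8.82, 0.559 and 1.87 CPM, with overlapping groups). Krt8 was the gene that rose among 4 trophoblast genes (0.64, 40.8, 34.1 and 33.3 CPM against 27.7, 20.0 and 22.4 CPM), while its partner keratin gene Krt18 had a log2 fold change of 0.12. Among 20 genes of miR processing and silencing none passed by edgeR (1 unadjusted p under 0.05, median -0.07), and among 11 genes of interferon and RNA sensing none (1 unadjusted p under 0.05, median 0.08).

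To see whether the differences lay with the miR-1946a or with the scrambled libraries, the levels were also compared with the other inhibitors of the same batches. These comparisons share the miR-1946a libraries and are therefore given side by side. In a fit of all 48 inhibitor libraries, 465 genes were higher (3.57%) and 157 lower (1.21%) with the miR-1946a inhibitor than in the mean of the 12 inhibitors of other miRs. Padi4 had a log2 fold change of 2.10 in this contrast, Prph 1.50, Cacna2d2 1.57, Msln 1.71 and Kif1a 1.66. Gm14296 (0.59, adjusted p = 0.57), Gm10131 (-0.41), Pcdhgc4 (-0.41) and Camk2n1 (-0.25) did not pass there, and Pcdhgc4, Gm10131 and Camk2n1 had their highest group mean with the scrambled inhibitor. Btg3 had a log2 fold change of -1.41. Among the named genes that rose, Gm14296, Coro6, Insyn1 and Carns1 had their lowest group mean with the scrambled inhibitor. Their scrambled means were 3.08, 2.26, 2.46 and 1.96 CPM. The medians of the 15 groups other than miR-1946a were 8.80, 3.26, 3.94 and 2.78 CPM. The other named genes that rose had their lowest mean in another group.

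Across the 48 libraries, 87 of 13029 genes were higher in all 3 miR-1946a libraries than in each of the 45 others. The same count was 0 to 6 for each of the other 15 groups. Only 2 genes were lower in all 3 miR-1946a libraries than in the others, and the count for the other groups was 0 to 19. Of the 15 named genes that rose, 10 were among the 87. Padi4 was at 37.5 to 55.7 CPM in the miR-1946a libraries, with the scale set over the 48 libraries, against 7.82 to 16.2 CPM in the 45 others. For Cacna2d2 the corresponding values were 14.0 to 25.5 CPM and 4.06 to 10.5 CPM, and for Prph 26.1 to 40.9 CPM and 6.59 to 20.2 CPM. Zscan4f was at 3.88 to 13.1 CPM against 0.796 to 25.3 CPM, and its highest group mean was with the miR-1946b inhibitor. As the called genes were selected for their level in the miR-1946a libraries, these ranks are a description.

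With untreated cells as the reference, the blocked fit of 6 libraries called no gene (0 of 12830 by edgeR, 889 or 6.93% with an unadjusted p under 0.05, lowest adjusted p 0.099), while DESeq2 called 52 genes higher and 9 lower, and the fit of 48 libraries called 150 higher (1.15%) and 18 lower (0.138%). The log2 fold changes were 1.99 for Padi4, 1.63 for Prph, 1.62 for Cacna2d2 and 1.95 for Msln. The scrambled inhibitor differed from untreated cells in 1 gene, Btg3, of 12944 (0.00773%) at an adjusted p under 0.05 or under 0.10 by edgeR and in 1 gene by DESeq2, and 368 genes (2.84%) had an unadjusted p under 0.05.

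The miR-1946b inhibitor is the closest comparison, since its target miR has a related name and the same proposed target. Of 13043 genes, 964 differed (7.39%), and 647 were higher (4.96%) and 317 lower (2.43%) with the miR-1946a inhibitor than with the miR-1946b inhibitor. This count depended on single libraries: it was 2310 without the miR-1946a and 2281 without the miR-1946b library of b3, 317 and 261 without those of b1b, and 544 and 546 without those of b2. The contrast does not use the scrambled libraries. Padi4 was at 52.0, 55.8 and 37.6 CPM with the miR-1946a inhibitor, against 10.1, 8.96 and 14.7 CPM with the miR-1946b inhibitor (log2 fold change 2.11, adjusted p = 9.7e-05). Mal, a proteolipid of membrane rafts and myelin, was at 31.7, 41.9 and 27.9 CPM against 8.16, 10.2 and 12.6 CPM (1.71, adjusted p = 9.7e-05).

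Of the 26 genes named above, 14 of the 15 that rose also passed in the contrast with miR-1946b, and 7 of the 11 that fell. Over all genes of that contrast, 4.96% were higher and 2.43% lower. The named genes were selected for their level in the same miR-1946a libraries, so these counts are a description. Zscan4-ps2 did not pass (log2 fold change -0.67, adjusted p = 0.19). Genes at a lower level with the miR-1946a than with the miR-1946b inhibitor included Taf7l, a germ cell paralog of a TFIID subunit (6.00, 7.79 and 4.30 CPM against 18.2, 20.4 and 7.03 CPM, log2 fold change -1.29), Ccn2, which encodes connective tissue growth factor (3.54, 9.09 and 7.40 CPM against 13.1, 30.3 and 8.24 CPM, -1.30) and the Hippo pathway kinase gene Lats2 (-1.12). These 3 were picked after their values were seen, and against the scrambled inhibitor none of them was called (log2 fold change -0.04 for Taf7l, -0.85 for Ccn2 and -0.52 for Lats2). Of the p53 list, 1 gene was higher and 8 were lower among 17 tested (median -0.27), compared with 4.96% and 2.43% of all genes. Among those lower were Mdm2 (-0.28), Ccng1 (-0.30) and Trp53inp1 (-0.30). Of the 2-cell list, 1 gene was lower, Zscan4d (-1.17). Rab8a had a log2 fold change of 0.09 (adjusted p = 0.47).

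Set beside each other, the miR-1946b inhibitor differed from the scrambled inhibitor, with the same 3 scrambled libraries, in 15 of 13118 genes (0.114%, 13 higher and 2 lower). Zscan4f had a log2 fold change of 2.07 there and 1.56 with the miR-1946a inhibitor, Zscan4c 2.22 and 1.56, and Usp17la 2.67 and 2.04. Padi4 had -0.06 there, Prph 0.28 and Rab8a -0.02. The count for miR-1946b depended on the fit. In the fit of 48 libraries, 67 of 13029 genes were higher and 182 lower with the miR-1946b than with the scrambled inhibitor. That fit gave 231 higher and 104 lower for miR-1946a, 81 and 180 for miR-23b-5p, and 45 and 139 for miR-135b-3p. The remaining groups had at most 7 genes in either direction.

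The GC content of the transcripts moved with the result. The median transcript GC was 55.5% for genes that rose, 46.2% for genes that fell and 50.1% for all genes tested. The quintile of genes with the highest GC held 55 of the 119 genes that rose (2.11% of that quintile), and the lowest quintile 7 (0.268%). In the highest quintile the median log2 difference was 0.34 in b1b, -0.06 in b2 and 0.11 in b3, and in the lowest quintile it was -0.25, 0.08 and -0.09. The sign in b2 was opposite to that in the other batches. The part of the GC content in the result was not tested beyond the following fit. With an offset for the trend with GC in each library, 60 genes were higher and 13 lower, and 66 of the 131 genes were still called. Padi4, Prph, Cacna2d2, Msln, Btg3, Cebpb and Marcks were among those, while Lgr6 (adjusted p = 0.054), Insyn1 (0.10), Serpine2 (0.10), Pcdhgc4 (0.079), Lpl (0.055) and Klhl13 (0.078) no longer passed.

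**Figure D5:**
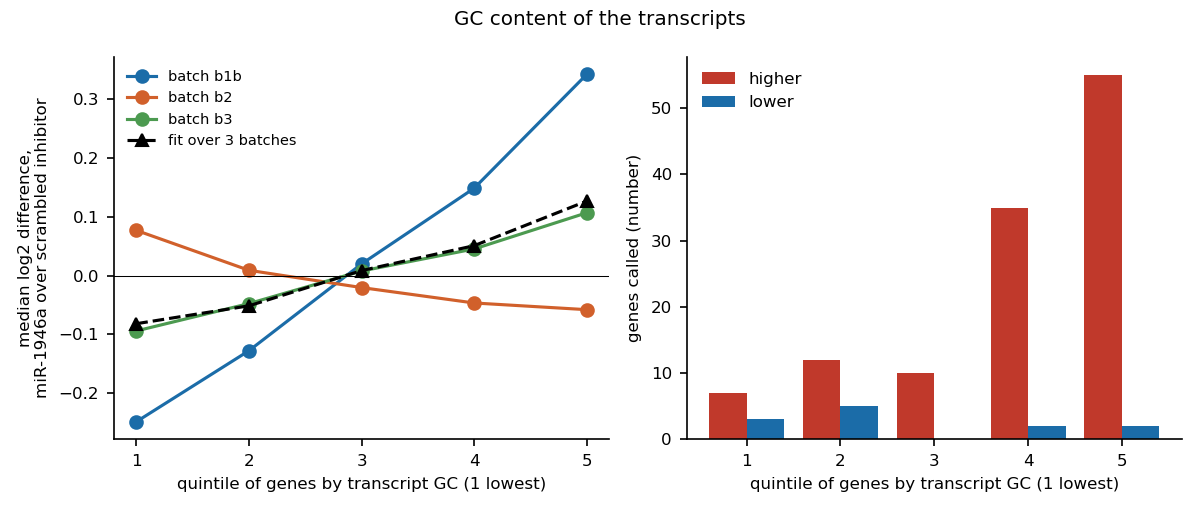
Left, median log2 difference of the miR-1946a over the scrambled inhibitor (y axis) in quintiles of genes by transcript GC (x axis), for each batch and for the fit over 3 batches. Right, number of genes called higher or lower in each quintile. In b1b the medians run from -0.25 to 0.34 and in b2 from 0.08 to -0.06, and the highest quintile holds 55 genes called higher.

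The miR-1946a mimic provides the opposite perturbation with its own control, but for 24 h and at the base concentration, so that its values are only set beside those of the inhibitor. With the mimic, 22 of 12868 genes were higher (0.171%) and 31 lower (0.241%) than with the scrambled mimic. Of the 26 named genes 21 were tested there and 1 passed. This was Btg3, with a log2 fold change of -1.25 with the mimic (adjusted p = 0.018) and -2.05 with the inhibitor, lower than the scrambled control in both. Padi4 had 0.11 with the mimic, Prph 0.25, Cacna2d2 -0.32 and Msln -0.02. Rab8a had a log2 fold change of -0.01 with the mimic (adjusted p = 0.96) and 0.07 with the inhibitor, Poglut1 0.36 and -0.02, and Cirbp 0.33 and 0.22.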

How the data were processed

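RNA of transfected mESCs was measured with stranded paired-end libraries, small RNA with 32 libraries of an RA time course. The authors deposited expected counts per gene, estimated with RSEM 1.3.1 after Trimmomatic 0.38 and STAR 2.6.1a on mm10 (GRCm38), and not scaled. Small RNA read counts, some of them fractional, were deposited by the authors per miR and precursor. The largest count of each mature miR was kept here, and the kept counts were divided by their sum to give CPM. For the tests the counts were rounded, scaled by TMM and tested with edgeR 4.0.16 in R 4.3.3 (quasi-likelihood test, batch as block, mean count above 20, Benjamini-Hochberg adjusted p under 0.05). The labels call the batches biological replicates with controls in each, which pairs the libraries. Deviations from the group means correlated with r = 0.277, 0.251 and 0.068 between libraries of the same batch. Between libraries of different batches r was -0.293 to 0.047, so the value for b3 (0.068) was close to the highest of these. Deviations from a mean of 3 libraries cancel within a group. Positive values within batches therefore go with negative ones between batches, and the latter are no independent baseline.

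The fit script was tested on simulated data. Named genes were taken from the called genes that averaged 50 counts or more and had the same sign in all batches, up to 15 per direction by size of change (11 qualified among the genes that fell), the predicted targets and, in each list described, the genes of lowest p. The libraries, gene lists and tests were chosen with earlier results of these data known. GC content, 3′ UTRs and coordinates come from the GENCODE annotation of GRCm38. Standard errors are the absolute log2 fold change over the square root of F. Alternatives were DESeq2 1.42.0, its size factors in edgeR, no filter or a mean count above 100, no block, other references, an adjusted p under 0.01, an offset for GC content, and each library left out. The other libraries of the series were not used here. Figures were drawn with matplotlib 3.10.9. A result on 1 gene is not reported here.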

Additional observations from a re-analysis of the deposited data

How the results depend on the processing

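For the miR-1946a against the scrambled inhibitor (131 genes), DESeq2 called 117 genes and RLE size factors 130. Without a filter on low counts 403 genes passed, with a mean count above 100 76, at an adjusted p under 0.01 53 (49 higher and 4 lower), in the fit of 48 libraries 335, against the 12 other inhibitors 622, and against untreated cells 0 by edgeR (889 with an unadjusted p under 0.05) and 61 by DESeq2. With no replicate block, that is without the pairing by batch, 22 genes passed, all among the 131. The offset for GC content, with the block, gave 73 genes. Taking multi-copy and predicted genes out of the 131 left 114, with no new fit or adjustment of p. Both settings were chosen after seeing the data. Leaving out 1 library gave 115 to 290. For the miR-1946a against the miR-1946b inhibitor (964 genes), DESeq2 called 406, no filter 1675, no replicate block 45, the fit of 48 libraries 426, and leaving out 1 library 261 to 2310. For scrambled against none the block-free fit called 0 genes (87 with an unadjusted p under 0.05). For the mimic (53 genes) DESeq2 called 246 and the fit without the block 0 (750 with an unadjusted p under 0.05). The cause of these differences was not tested. DESeq2 and RLE size factors left all 26 named genes called, and 18 of them were lost without the block. Camk2n1 changed sign against untreated cells (0.0619 by edgeR and 0.0628 by DESeq2). Poglut1 changed sign against the 12 other inhibitors (0.0424) and with the GC offset (0.0099), and ranged from -0.149 to 0.0781 when 1 library was left out. Cirbp changed sign against the 12 other inhibitors (-0.0239). Rab8a was positive and not called in every alternative (0.02 to 0.12 with 1 library left out). The highest mean level of miR-1946a over the RA time course was 2.00 times that at 0 h by CPM and 2.75 times by median-ratio size factors. The planned search for seed and long matches of miR-1946a was not run.

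Limits: 3 libraries per group allow calls only of large or very even changes, and genes near a mean count of 20 are the least precise. The count of calls depends on the block. The trend of the log2 difference with GC content had the opposite sign in b2. The part of this trend in the result was not tested beyond the fit with an offset for GC content.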
